A study of Mus musculus with 2 samples.

Results

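The neurotrophins, glial cell line-derived neurotrophic factor (GDNF) and the receptors that bind them were measured as RNA in the midbrain of newborn mice. The group holds 8 genes, of which Bdnf, Ntf3 and Gdnf code for ligands and Ntrk2, Ntrk3, Ngfr, Gfra1 and Gfra2 code for receptors. The genes were chosen by symbol after the Ensembl identifiers of the gene tables, without their version, had been matched to GENCODE symbols. All 8 were found among the 43346 Ensembl genes of each table, each under a single identifier. RNA came from 2 mice of strain B6NCrl on postnatal day 0, pup 1 and pup 3, with 1 midbrain and 1 library for each. The labels name no treatment or engineered allele, give both pups a shared donor identifier and record no sex. Since there is 1 group, no contrast between conditions exists. With 2 animals the smallest two-sided p of an exact sign-flip test is 0.5, so levels and ratios are reported with their spread and without p-values.

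Neurotrophins are secreted growth factors that keep neurons alive and shape their axons and synapses. BDNF signals through the receptor tyrosine kinase TrkB, the product of Ntrk2, and neurotrophin-3, the product of Ntf3, signals mainly through TrkC, the product of Ntrk3, while the receptor encoded by Ngfr, which has no kinase, binds all neurotrophins and their uncleaved precursors. GDNF binds the lipid-anchored coreceptor GFRα1, its relative neurturin prefers GFRα2, and both complexes act through the receptor tyrosine kinase RET; dopamine neurons of the midbrain respond to GDNF and to BDNF.

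Several receptor genes of the group make RNAs that code for proteins with different signalling parts, and the sequences where these forms divide are shown first because the shares reported further on rest on them. In Ntrk2 the full-length and the truncated form share 465 residues. The truncated form then reads into a separate coding end of 35 bases at chr13:58932023-58932057 (mm10), which gives 11 residues of its own before a TAG stop. In the 2 sequences below, read 5′ to 3′ on the coding strand, the last shared bases are in lower case and the bases read from each form's own exons are in capitals.
Ntrk2 kinase: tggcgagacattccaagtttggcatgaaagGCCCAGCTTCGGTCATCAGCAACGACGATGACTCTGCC
Ntrk2 truncated: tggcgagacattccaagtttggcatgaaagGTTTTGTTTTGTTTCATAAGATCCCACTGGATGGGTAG

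In Ntrk3 the forms part after 528 shared residues. The truncated form adds 84 residues from coding bases at chr7:78304292-78304426 and chr7:78302632-78302747, and the full-length form goes on to the kinase. Capitals again mark the bases from each form's own exons.
Ntrk3 kinase: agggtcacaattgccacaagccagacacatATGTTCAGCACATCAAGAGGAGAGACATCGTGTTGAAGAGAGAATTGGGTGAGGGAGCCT
Ntrk3 truncated: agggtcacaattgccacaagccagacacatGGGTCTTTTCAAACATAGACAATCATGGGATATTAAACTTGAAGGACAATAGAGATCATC

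The kinase of TrkC also exists with extra residues inside it, which are known to weaken its signalling. Here they followed residue 711, after both the HRD motif (residue 677) and the DFG motif (residue 697) that mark a protein kinase. An exon of 42 bases at chr7:78204103-78204144 adds 14 residues. With a further exon of 75 bases at chr7:78229487-78229561, the insert is 39 residues long. The inserted bases are in capitals.
Ntrk3 without insert: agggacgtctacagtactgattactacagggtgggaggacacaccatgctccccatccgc
Ntrk3 with 14-residue insert: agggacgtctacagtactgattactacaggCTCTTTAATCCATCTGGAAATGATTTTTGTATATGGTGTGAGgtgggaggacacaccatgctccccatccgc
Ntrk3 with 39-residue insert: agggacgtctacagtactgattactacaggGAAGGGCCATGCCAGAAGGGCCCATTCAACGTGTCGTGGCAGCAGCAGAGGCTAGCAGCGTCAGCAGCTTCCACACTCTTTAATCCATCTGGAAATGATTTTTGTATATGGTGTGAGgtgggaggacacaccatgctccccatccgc

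Gfra1 has a short exon of 15 bases at chr19:58392573-58392587 that adds 5 residues after residue 139 of the coreceptor, shown in capitals below.
Gfra1 without the exon: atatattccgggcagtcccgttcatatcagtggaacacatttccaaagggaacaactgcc
Gfra1 with 5-residue exon: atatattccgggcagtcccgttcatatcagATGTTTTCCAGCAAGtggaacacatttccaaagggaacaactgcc

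Levels are given as TPM, a measure of transcript abundance divided by transcript length and scaled to the same sum in each library, so that different genes can be compared. Beside them stand the expected counts, the number of reads assigned to a gene. The libraries held 36934868 (pup 1) and 40769103 (pup 3) such counts, of which the 8 genes took 0.0469% and 0.0472%. Of nuclear protein-coding genes, 62.1% reached 1 TPM in both pups, and the marker counts that follow stand beside that share. Among markers of the labelled tissue, 5 of 7 midbrain regional factors and 8 of 8 dopamine neuron markers reached 1 TPM in each pup. The midbrain factors below it were En2 (0.88 and 0.74 TPM) and Lmx1b (0.55 and 0.7 TPM). Of 5 hindbrain markers, 1 reached it. That marker was Gbx2, at 13.04 TPM in pup 1 and 19.6 TPM in pup 3, and Hoxa2 and Hoxb4 were at 0 in both. Other cell types that such tissue can hold were also represented, with 5 of 5 markers of neurons, 5 of 5 of oligodendrocyte precursors, 5 of 5 of meninges and fibroblasts, 4 of 4 each of mural cells, endothelial cells and microglia, 2 of 4 of sensory ganglia (Mrgprd at 0) and 2 of 4 of Schwann cells at that level. Markers of tissue next to the midbrain differed between the libraries, with 5 of 6 hypothalamic markers more than 1 higher on the log2 scale in pup 3 (0.218% of all genes with a mean count of at least 100 were, and 0.0976% were lower by as much) and their summed level at 169 TPM in pup 1 and 374 TPM in pup 3. Among forebrain markers, 2 of 6 were higher in pup 3 by that measure (summed 32.6 and 49.4 TPM), and Isl1, a marker of sensory ganglia and of many other neurons, stood at 11.2 and 21.9 TPM. The part of these differences in the levels below was not tested.

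In the newborn midbrain the receptor genes were mostly the higher members of the group, the ligand genes the lower ones, and Gdnf was at the edge of detection. Ntrk2 led with 60.8 ± 1.33 TPM (SD, n = 2), and Gdnf closed the order with 0.095 ± 0.0495 TPM (n = 2), a ratio of 639.6 between the means. On the 10 and 5 counts of Gdnf this ratio was 460.2 in pup 1 and 1028 in pup 3. Among nuclear protein-coding genes, 62.1% reached 1 TPM in both pups, and 7 of the 8 genes did so, Gdnf being the exception. The median of the 8 was 13.4 TPM in pup 1 and 13.7 TPM in pup 3, beside 4.51 and 4.68 TPM over 21461 protein-coding genes. In whole tissue a low level from fewer expressing cells and one from less RNA per cell cannot be told apart.

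Bdnf (ENSMUSG00000048482, chr2:109674700-109727007, plus strand), the gene of the main TrkB ligand, stood at 9.15 TPM in pup 1 and 9.18 TPM in pup 3. It rested on 839 and 917 counts, and 58.7% of protein-coding genes had a lower mean. The pups were nearly equal, with a log2 difference of 0.0047 (pup 3 minus pup 1). Ntf3 (ENSMUSG00000049107, chr6:126101412-126166910, minus strand), which codes for the TrkC ligand, stood at 2.13 and 1.79 TPM. Only 62 and 59 counts lay behind these values, with exact 95% Poisson intervals of 47.5 to 79.5 and 44.9 to 76.1 that overlap almost fully. Such intervals cover counting error only. Gdnf (ENSMUSG00000022144, chr15:7810846-7837575, plus strand) stood at 0.13 TPM in pup 1 and 0.06 TPM in pup 3, from 10 counts (4.80 to 18.4) and 5 counts (1.62 to 11.7). One further read of Gdnf would add 0.013 TPM in pup 1 and 0.012 TPM in pup 3. The ratio of the counts between the pups, scaled to the library sums, was -1.14 on the log2 scale with an interval of -3.04 to 0.54, which spans 0, so no difference in Gdnf was detectable at this depth.

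Ntrk2 (ENSMUSG00000055254, chr13:58806569-59133970, plus strand) was the most abundant of the group at 59.8 TPM in pup 1 and 61.7 TPM in pup 3, from 10752 and 12131 counts, and stood above 87.0% of protein-coding genes. Ntrk3 (ENSMUSG00000059146, chr7:78175959-78738012, minus strand) was measured at 17.7 and 18.1 TPM from 974 and 1132 counts. Ngfr (ENSMUSG00000000120, chr11:95568818-95587735, minus strand) was the lowest of the receptors, at 4.33 and 4.45 TPM from 335 and 376 counts, close to the middle of the protein-coding genes (49.5% lower). Ngfr is also known from Schwann cells, whose 4 markers summed to 29.1 TPM in pup 1 and 27.2 TPM in pup 3, with Foxd3 at 1 and 0 counts, and their part in the Ngfr level was not tested. All of these 3 receptors of the neurotrophins were a little higher in pup 3, by 0.03 to 0.04 on the log2 scale. The median difference over all genes with a mean count of at least 100 was 0.018. Intervals of the count ratio, scaled to the library sums, spanned 0 for Ntrk2 (-0.006 to 0.069), Ntrk3 (-0.05 to 0.199) and Ngfr (-0.192 to 0.241).

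Of the coreceptors of the GDNF family, Gfra1 (ENSMUSG00000025089, chr19:58235604-58455909, minus strand), which binds GDNF, stood at 30.8 TPM in pup 1 and 29.3 TPM in pup 3. Gfra2 (ENSMUSG00000022103, chr14:70890120-70979838, plus strand), which binds neurturin, stood at 22.2 and 23.3 TPM. The values of Gfra1 and Gfra2 did not overlap, and Gfra1 was the higher in both pups, by 1.39-fold and 1.26-fold. Behind them were 2617.78 and 2639.36 counts for Gfra1, the only gene of the group whose counts were not whole, and 1724 and 1983 counts for Gfra2. The antisense gene Gm16277, which overlaps the 3′ end of Gfra1, held 71.22 and 102.64 counts, and with Gfra1 these summed to the whole numbers 2689 and 2742, so reads were divided between this pair. Gm9885, antisense to Ntrk3, held 119 and 147 counts, whole like those of Ntrk3. The sources used here do not say whether reads were counted by strand.

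The order of the mean levels was Ntrk2, Gfra1, Gfra2, Ntrk3, Bdnf, Ngfr, Ntf3 and Gdnf. Between the ends of this order lay the means of Gfra1 (30.04 ± 1.03 TPM, SD, n = 2 for each gene), Gfra2 (22.8 ± 0.827), Ntrk3 (17.9 ± 0.297), Bdnf (9.17 ± 0.0212), Ngfr (4.39 ± 0.0849) and Ntf3 (1.96 ± 0.240). Neighbours were taken as apart where neither the pups' values nor the deposited credibility intervals of the TPM overlapped, and 7 of 7 neighbours were. The smallest steps lay between Gfra2 and Ntrk3 (1.27-fold) and between Gfra1 and Gfra2 (1.32-fold), and the largest lay between Ntf3 and Gdnf (20.6-fold on the means). Bdnf was the one ligand gene above a receptor gene of the group, Ngfr.

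**Figure D1:**
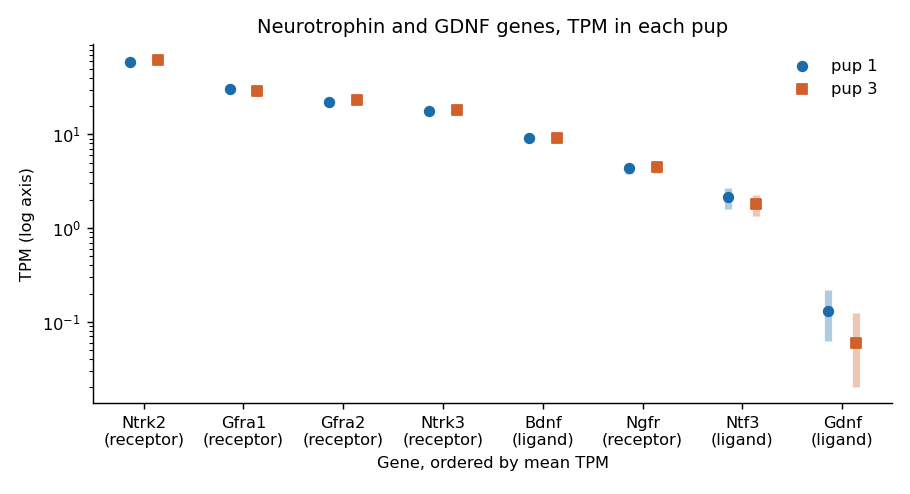
TPM of the 8 genes in pup 1 (circles) and pup 3 (squares) on a log axis, ordered by mean; shaded bars are the deposited credibility intervals. The pups nearly coincide for 6 genes, and only Ntf3 and Gdnf, the genes with the fewest counts, have intervals that are wide on this axis.

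Levels of different genes were set against each other within each library, as log2 ratios of TPM after adding 0.1. A pair was called apart where the mean ratio was over 1 in size and over 3 SD, with the same sign in both pups and no overlap of the deposited intervals. By this rule 12 of 13 pairs were apart, 10 of them with the first-named gene higher. The share of gene pairs in general that would pass this rule was not computed, and many of the 13 pairs have a gene in common.

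Ntrk2 and Ntrk3, which code for kinase receptors and for truncated forms without the kinase, were each higher than the gene of the preferred ligand. The ratios count all forms of a gene together, so those of the kinase forms alone are smaller. Ntrk2 was 6.54-fold above Bdnf in pup 1 and 6.72-fold in pup 3 (log2 ratio 2.72 ± 0.028, n = 2). Ntrk3 was 8.31-fold and 10.1-fold above Ntf3, a log2 ratio of 3.13 ± 0.19 (n = 2). The greater spread of this pair came with the low counts of Ntf3. Between the receptors, Ntrk2 stood 3.38-fold and 3.41-fold above Ntrk3, and 13.8-fold and 13.9-fold above Ngfr. Ntrk3 stood 4.09-fold and 4.07-fold above Ngfr. In TPM these 3 ratios among receptors were the most alike between the pups of all 13, with SDs of 0.0077, 0.0042 and 0.0035 on the log2 scale. Each SD rests on 2 values. With counts not divided by length the SDs were 0.030, 0.0054 and 0.036, beside 0.032 for Ntrk2 over Bdnf. Between the ligands, Bdnf was 4.296-fold and 5.13-fold above Ntf3.

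Gdnf was far below its coreceptors. Gfra1 exceeded Gdnf by 7.30 ± 0.32 and Gfra2 exceeded Gdnf by 6.90 ± 0.42 on the log2 scale (n = 2 each). Bdnf exceeded Gdnf by 5.59 ± 0.37, and Ntf3 exceeded it by 3.42 ± 0.20. With 10 and 5 Gdnf counts these ratios carry the counting error of Gdnf, and the added 0.1 TPM, which is about the level of Gdnf itself, lowers them. The pair of coreceptors was the one that was not apart: Gfra1 over Gfra2 was 0.40 ± 0.10 on the log2 scale, below the size of 1 that the rule asks for.

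RET, the kinase that both coreceptors need, was lower than either of them. Ret stood at 4.98 TPM in pup 1 and 4.04 TPM in pup 3, the log2 ratio of Ret to Gfra1 was -2.72 ± 0.16 and that of Ret to Gfra2 was -2.32 ± 0.26 (n = 2 each). Ncam1, a cell adhesion molecule that can also bind GDNF with GFRα1, stood at 507.1 and 552.8 TPM.

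**Figure D2:**
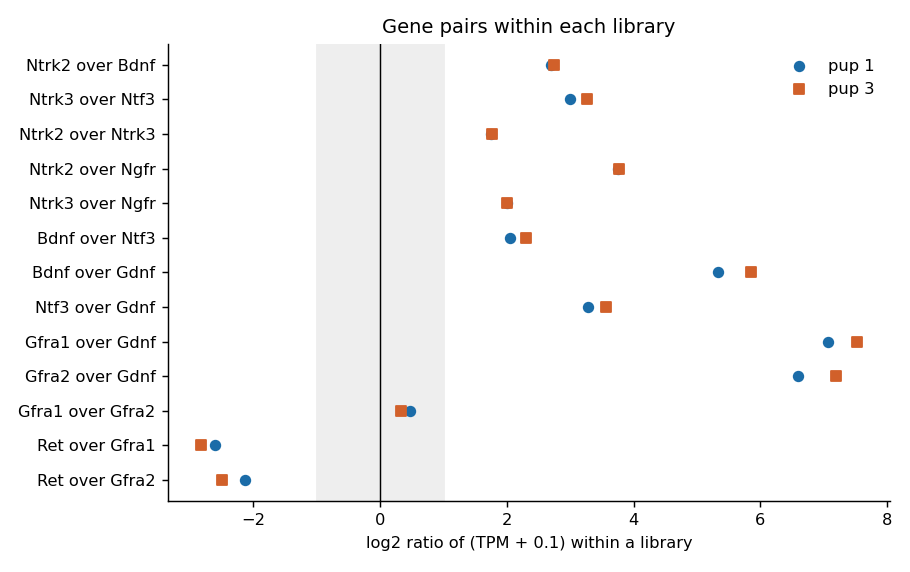
Log2 ratio of 2 genes within a library after adding 0.1 TPM, for 13 pairs in pup 1 (circles) and pup 3 (squares); the grey band marks ratios up to 1 in size. The Gfra1 over Gfra2 pair lies inside the band at 0.40, and both pairs with Ret lie below -2.

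The transcript tables divide each gene's TPM among its annotated transcripts, a division inferred from the reads that fit only some of them. Ntrk2 had 2 transcripts. The full-length one (ENSMUST00000079828, 821 residues, with the HRD motif at residue 673 and the DFG motif at residue 693) stood at 33.8 TPM in pup 1 and 35.3 TPM in pup 3. The truncated one (ENSMUST00000109838, 476 residues), which binds BDNF but lacks the kinase, stood at 26.0 and 26.4 TPM. The full-length form was 1.30-fold and 1.34-fold above the truncated form, and their deposited intervals did not overlap in either pup. The log2 ratio of 0.40 ± 0.03 (n = 2) was below the size of 1 that the rule asks for. The truncated share of Ntrk2 TPM was 43.5% in pup 1 and 42.8% in pup 3. As a share of the Ntrk2 counts, not divided by length, it averaged 38.3%. The newer GENCODE M21 annotation lists 10 transcripts of Ntrk2, so forms beyond these 2 are not separated here.

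Truncated TrkB is known as the main TrkB form of mature astrocytes, and astrocyte markers were present. All 7 of 7 reached 1 TPM in each pup, beside 62.1% of all protein-coding genes. They summed to 310.9 TPM (pup 1) and 288.3 TPM (pup 3). Single markers went both ways between the pups, with Aqp4 at 33.5 and 25.6 TPM and Slc1a2 at 11.4 and 12.8 TPM. The part of astrocytes in the truncated form was not tested.

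Ntrk3 was divided among more forms. Its kinase transcripts together held 62.1% of the TPM in pup 1 and 66.9% in pup 3, and the truncated transcript (ENSMUST00000039438, 612 residues) held 23.9% and 22.4%. Kinase over truncated was 2.60-fold and 2.98-fold, or 1.45 ± 0.14 on the log2 scale (n = 2). This ratio exceeded 1, but the deposited intervals of the leading kinase transcript and of the truncated transcript overlapped, so the forms were not called apart. Without division by length the ratio was 1.80 and passed the rule, which then uses Poisson intervals of the summed counts.

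The remaining Ntrk3 share, 14.02% and 10.7%, lay on noncoding transcripts, chiefly Ntrk3-203 (ENSMUST00000151885). This transcript of 866 bases shares 749 with the truncated transcript and contains all 251 bases of its coding tail. Reads in that tail thus fit both. Over complete coding transcripts alone the truncated share averaged 26.5% in place of 23.2%. That share leaves Ntrk3-203 (2.48 TPM in pup 1 and 1.91 TPM in pup 3) out and gives none of it to the truncated form. How much of the Ntrk3-203 level came from truncated RNA was not tested, so the truncated share could be higher than either value.

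The kinase RNA of Ntrk3 was divided among forms that differ by the insert shown above. The form with the 14-residue insert (ENSMUST00000193002, 839 residues) led, at 6.11 TPM in pup 1 and 7.39 TPM in pup 3. The form with no insert (ENSMUST00000039431, 825 residues) stood at 3.69 and 4.68 TPM. These were 34.5% and 40.8% of the gene's TPM for the insert form, against 20.9% and 25.8% without it. The deposited intervals of these forms overlapped in both pups, 4.06 to 7.69 against 2.71 to 4.67 TPM in pup 1 and 4.27 to 7.88 against 3.54 to 5.46 TPM in pup 3. The form with the 39-residue insert (ENSMUST00000195262, 864 residues) was listed at 1.18 TPM in pup 1 and 0.05 TPM in pup 3. Its posterior mean share was alike in the pups, 6.69% and 7.13%, and its deposited interval reached nearly to 0 in both, so the pups were not distinguishable in this form.

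**Figure D3:**
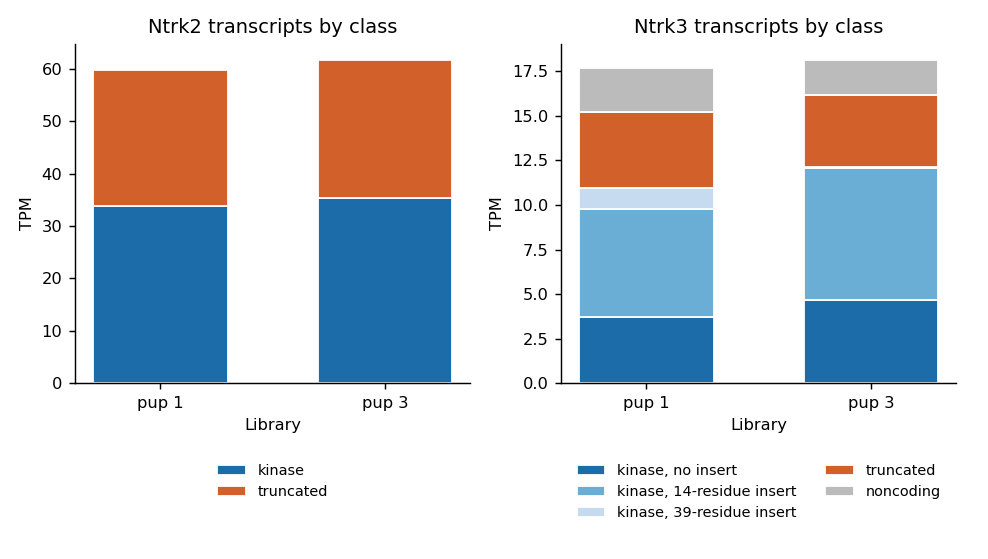
TPM of Ntrk2 (left) and Ntrk3 (right) transcripts in each pup, stacked by the form of the coded protein. Truncated Ntrk2 makes up 43.5% and 42.8% of its bar, truncated Ntrk3 23.9% and 22.4%, and the form of Ntrk3 with the 39-residue insert is clearly visible only in pup 1.

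The coreceptor genes divided differently. Gfra2 had 1 transcript in the tables, which codes for 464 residues. Gfra1 had 9, of which the leading one (ENSMUST00000026076, 468 residues) carries the 5-residue exon and stood at 15.7 TPM in pup 1 and 14.4 TPM in pup 3. The transcript without the exon (ENSMUST00000129100, 463 residues) stood at 8.66 and 7.89 TPM. In neither pup did the deposited intervals of these transcripts overlap. Transcripts with the exon held 51.2% and 49.0% of the Gfra1 TPM, and the one without it held 28.2% and 26.9%. The rest, 20.6% and 24.1%, lay on incomplete models, chiefly ENSMUST00000131877 at 5.52 and 6.23 TPM, a model of 841 bases. These incomplete models held only 3.89% and 4.998% of the Gfra1 counts, so most of their share arises from division by a short length. Over complete coding transcripts alone, a comparison added after the data had been seen, the exon was in 64.5% of the TPM in both pups.

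Bdnf transcripts differ in where they start: each joins its own first exon to a shared last exon that holds the coding sequence of the precursor. The starts are numbered here from I in order along the chromosome. Of 11 transcripts, 5 were above 0 in both pups. Start I (chr2, 109674700), whose transcript (ENSMUST00000053317) codes for a precursor of 257 residues in place of 249, held 20.2% of the Bdnf TPM in pup 1 and 21.05% in pup 3. Start IV (109692436, ENSMUST00000111050) held 20.7% and 21.2%. These shares were close in the pups, unlike those of the remaining pair of starts. Start II (109675897, 3 transcripts, led by ENSMUST00000111051 and ENSMUST00000111047) held 34.3% and 20.5%, and start VI (109693563, ENSMUST00000111045) held 24.8% and 36.4%. The deposited interval of the start VI transcript was 1.46 to 2.75 TPM in pup 1 and 2.38 to 3.82 TPM in pup 3, and these overlap. So did those of ENSMUST00000111051, the start II transcript that differed most, at 1.07 to 2.32 and 0.42 to 1.29 TPM. Starts III, V, VIII and IXA were listed at 0 in both pups, and start VII at 0 and 0.872%.

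**Figure D4:**
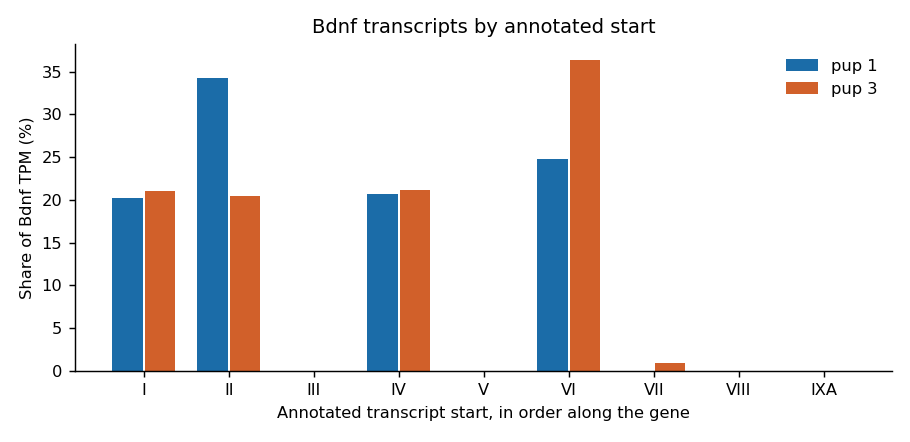
Share of the Bdnf TPM in percent by annotated transcript start, in order along the gene, for pup 1 and pup 3. Starts I, II, IV and VI hold 20.2% or more of the TPM in each pup, and the pups differ most at starts II and VI.

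Start IV is the Bdnf promoter best known for its answer to neuronal activity through the factor CREB. The 100 bases before it (chr2:109692336-109692435, plus strand, RefSeq on GRCm38.p6) are shown with the match to CGTCA in capitals, the core of the element that CREB binds.
Bdnf before start IV: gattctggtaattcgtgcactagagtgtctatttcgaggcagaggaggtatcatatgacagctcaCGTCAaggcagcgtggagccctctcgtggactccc
CGTCA or its reverse complement TGACG was searched on both strands in windows of 300 bases, from 250 before to 50 after a start. It was found in 1 of 7 Bdnf windows, that of start IV at position -35, and in 20.8% of 32851 windows of the table. Starts II, VI and VIII are not in the table. The window of start I, with a like share of the TPM, held no match. A match is a run of letters and does not show that a factor bound there.

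For the other ligands the transcripts said less. Ntf3 had 2, coding for precursors of 258 residues (ENSMUST00000050484) and 271 residues (ENSMUST00000112244). The shorter precursor held 63.1% of the TPM in pup 1 and 18.1% in pup 3, on about 60 counts in all, and the deposited intervals of the transcript, 0.38 to 2.01 and 0.034 to 0.94 TPM, overlapped. Which of these forms leads could not be read at this depth. Gdnf (240 residues) and Ngfr (427 residues) had 1 transcript each.

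The coded proteins of paired members were related but distinct. The precursors of BDNF and neurotrophin-3 were identical at 46.8% of 231 aligned residues, the full-length forms of TrkB and TrkC at 58.8% of 792, and GFRα1 and GFRα2 at 53.8% of 424. Counts of the Trk and neurotrophin genes and of Gfra2 were whole numbers within 0.005, so no reads were divided between these relatives.

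The pups were also compared gene by gene, as the log2 difference of TPM after adding 0.1, among the 13318 genes with a mean count of 100 or more. Of all these genes, 0.315% differed by more than 1, and of the 6 members in this range 0 did. Ntf3 and Gdnf were below the count minimum. The 6 differences ran from -0.07 for Gfra1 to 0.07 for Gfra2, with a median size of 0.04 beside 0.11 over all genes tested. By counting error alone, the 95% interval of the count ratio, scaled to the library sums, left out 0 on the log2 scale in 43.3% of all genes tested and in 1 of the 6 members, Gfra1, at -0.13 (-0.21 to -0.05). With 1 library for each pup such a difference has no replicate check.

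**Figure D5:**
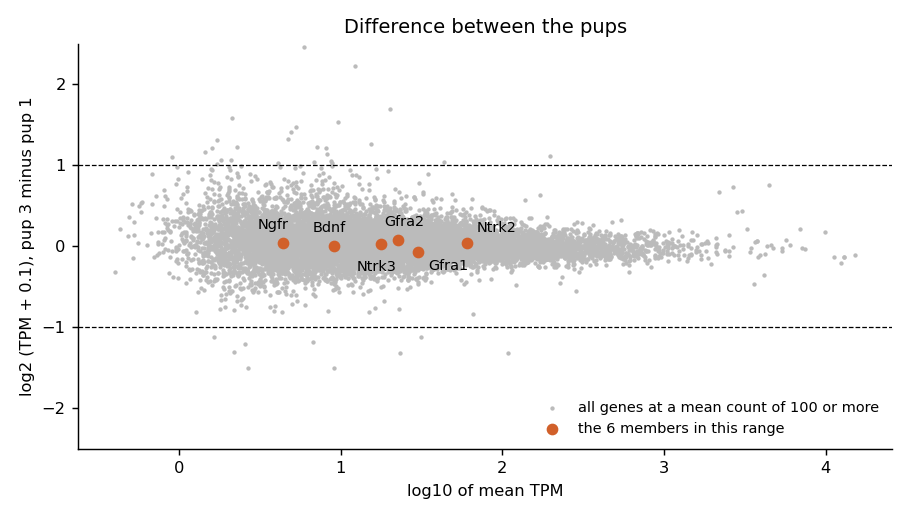
Log2 difference between the pups (pup 3 minus pup 1, TPM + 0.1) against the log10 of the mean TPM for genes with 100 or more counts on average; dashed lines mark a difference of 1, and 7 genes lie outside the axis limit of 2.5. The 6 members in this range lie within 0.074 of 0.

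Partners of the neurotrophins were mostly present. Of 12 listed genes, 11 reached 1 TPM in both pups, beside 62.1% of all protein-coding genes. The median of the 12 was 14.2 TPM in pup 1 and 13.98 TPM in pup 3. The highest were Maged1 (825 ± 5.59 TPM, n = 2) and Bex3 (786 ± 4.35), which code for proteins that bind the intracellular part of the Ngfr receptor, and Lingo1 (80.3 ± 0.771), a coreceptor in the Nogo receptor complex. Sort1 codes for sortilin, which binds precursor neurotrophins together with the Ngfr receptor, and stood at 10.7 and 12.2 TPM. Its relative Sorcs2 stood at 12.0 and 13.7 TPM. Ntf5, which codes for a further TrkB ligand, was scarce, with 1 and 2 counts.

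Among genes for the enzymes that cut precursor neurotrophins and their regulators, 8 of 9 reached 1 TPM in both pups. The share over all protein-coding genes was 62.1%. Serpini1, which codes for neuroserpin, an inhibitor of tissue plasminogen activator, led with 121 ± 9.15 TPM, followed by Plat, the activator itself, with 76.1 ± 8.90 TPM and the convertase gene Pcsk2 with 31.4 ± 1.61 TPM (n = 2 each). Plg, whose product plasmin cuts proBDNF outside cells, had 2 counts in each pup.

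In the GDNF family 5 of 10 listed genes reached 1 TPM in both pups, beside 62.1% of all protein-coding genes. Besides Ncam1 these were Sdc3, a heparan sulphate proteoglycan that binds GDNF (206 ± 0.177 TPM), Gfra4, the coreceptor of persephin (51.2 ± 2.66), Nrtn, which codes for neurturin (6.57 ± 0.318), and Ret (4.51 ± 0.665). Gfra4 was thus above the mean of Gfra1 and of Gfra2, while its ligand gene Pspn was at 0.46 and 0.32 TPM from 4 and 3 counts. Neurturin had more RNA than GDNF in both pups, 6.79 and 6.34 TPM. Artn, which codes for artemin, stood at 0.65 and 0.41 TPM, its coreceptor gene Gfra3 had 4 and 17 counts, and Gfral had 0 and 3. No gene of these 3 lists with a mean count of 100 or more differed by more than 1 between the pups.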

How the data were processed

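Total RNA was sequenced from 2 midbrains (pup 1 and pup 3, replicates 1 and 2 of 1 group). A text record deposited beside the tables names transcriptome alignments, build mm10 and GENCODE M4 as their basis. The quantification program is not given in the sources used here; the headers match those of RSEM. The authors deposited, per gene and per transcript, TPM (summing to 1000000 per library) and expected counts, not rounded, and for transcripts the percent of the gene's TPM. The authors' posterior mean TPM was read as deposited, and so were the bounds of its credibility interval, kept as a score on the TPM scale because its level is not stated. Log2 values were computed here from the deposited TPM + 0.1.

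Identifiers were matched to GENCODE M21 symbols (42462 of 43346, 98.0%), and coding sequences were translated from M21 transcripts with Biopython 1.88, so lengths can differ from M4: the file gives 3300 bases for Ntrk3-201 and M21 gives 19703. Promoter windows came from RefSeq (6 of 8 genes matched). Python 3.11.15, pandas 2.3.3, SciPy 1.17.1 and matplotlib 3.10.9 were used. Expected counts were rounded for edgeR 4.0.16 and DESeq2 1.42.0 (R 4.3.3), which gave only scaling factors and, over 17846 genes, a biological coefficient of variation of 9.28%. The rule of 1 on the log2 scale was tested on simulated counts that gave every gene this same variation, fitted to these 2 pups. It called 32 of 67 genes changed 2-fold, a change that lies at the limit of the rule. Of genes changed 3-fold it called 66 of 66, and of unchanged genes 0 of 13117. The rule can thus miss 2-fold differences.

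All 8 genes are named. Of the lists beside them, the other ligands and receptors (some are not reported here), Sort1, Sorcs2 and Ncam1, and of each list the 3 highest genes, the lowest and any past 1 between the pups are named, and a transcript is named at 5% or more of its gene's TPM in either pup or as the leader of its class. Members, lists and thresholds were chosen with earlier results of these data known. Alternatives changed the pseudocount, the count minimum, the detection level, the TPM estimate, the scaling, the denominators of shares and the pup left out.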

Additional observations from a re-analysis of the deposited data

How the results depend on the processing

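No paired analysis was possible because there is 1 group, so replicate numbers pair no samples across groups. In 117 comparisons of a main result with an alternative the value stayed within the spread or on the same side of the rule, in 4 it did not, and in 0 it changed direction. These 4 concern receptor forms. As a share of expected counts, truncated Ntrk2 was 38.3% in place of 43.1% and truncated Ntrk3 21.4% in place of 23.2%; among complete coding transcripts only, truncated Ntrk3 was 26.5%. These shifts follow from the denominators. Kinase over truncated Ntrk3 was 1.80 on the log2 scale with counts not divided by length and passed the rule that 1.45 had missed. The tally leaves out the member levels and the Gfra1 exon share, for which 12 alternatives moved by the SD or more and 21 did not. Posterior mean TPM moved the levels of Bdnf (9.09 in place of 9.17), Ntrk2 (59.3 in place of 60.8), Ntrk3 and Ngfr. Rescaling TPM to protein-coding genes raised the member levels (Ntrk2 to 72.8, Bdnf to 11.0, Gfra1 to 36.0), with the order of members unchanged by construction. Leaving out either pup changed no call, but leaves 1 library and no SD. For member levels, receptor-form shares, the order of members and the 12 pairs called apart, that outcome was fixed in advance. With 2 pups each value lies within 1 SD of their mean, and genes apart across both pups are apart in each. The smallest mean ratio of those pairs was 1.76 in size, and each was over 3 SD. The ratio in each pup thus had to exceed 1 in size. Those comparisons of the shares, of the order and of the pairs are counted among the 117. Depth limits Gdnf (10 and 5 counts), Ntf3 (62 and 59) and every transcript share resting on such counts; transcript shares also depend on the annotated models, and the interval level is not stated.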

Other observations

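Adaptor genes that carry signals from Trk receptors and RET were present throughout: 19 of 19 reached 1 TPM in both pups, beside 62.1% of protein-coding genes, and their median was 19.4 TPM (pup 1) and 19.8 TPM (pup 3). Grb2, which links receptors to the Ras pathway, led with 128 ± 2.26 TPM (SD, n = 2), followed by Dok4, a docking protein, with 80.8 ± 5.13 and Kidins220, a large scaffold at Trk receptors, with 64.6 ± 3.56. Shc4 was the lowest at 2.27 ± 0.156. Of genes known to be induced by neurotrophin signalling or neuronal activity, 11 of 14 reached 1 TPM in both pups, beside the same 62.1%. Vgf, a secreted peptide precursor, stood at 40.8 ± 1.39 TPM, the Ras pathway inhibitor Spry2 at 32.9 ± 0.7 and the ERK phosphatase gene Dusp6 at 19.7 ± 0.863, while Fosb had 6 and 8 counts.

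Other neurotrophic factors spanned a wide range. Of 11 listed genes, 6 reached 1 TPM in both pups, beside 62.1% of all protein-coding genes. Ptn, which codes for the heparin-binding factor pleiotrophin, stood at 436 ± 10.5 TPM, Manf at 96.7 ± 1.47 and Mdk, which codes for midkine, at 60.6 ± 0.219. Lif, a cytokine, had 4 counts in pup 1 and 1 in pup 3. None of the genes of these 3 lists with a mean count of 100 or more differed by over 1 on the log2 scale between the pups.

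Ret RNA was divided between a form of 1073 residues, with 75.9% of the TPM in pup 1 and 88.0% in pup 3, and a form of 1115 residues, with 24.1% and 12.0%. The deposited intervals of the 1115-residue form, 0.34 to 1.78 TPM and 0.16 to 0.85 TPM, overlapped between the pups. Dopamine neuron markers, which mark a population known to express Ret, summed to 108.1 TPM in pup 1 and 94.4 TPM in pup 3. Th (29.8 and 22.3 TPM) and Slc6a3 (20.7 and 12.2 TPM) were lower in pup 3, Nr4a2 (13.1 and 16.5 TPM) and Pitx3 (2.13 and 2.32 TPM) were higher, and Ddc (20.1 and 19.7 TPM) and Slc18a2 (16.5 and 16.4 TPM) were close. Their part in the Ret level was not tested.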
